A study of Mus musculus with 8 samples.

Results

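Heat shock proteins and cytosolic chaperones are described here in mouse embryonic stem cells with and without a knockdown of Dnmt3l. The genes were chosen by name: every probe whose annotated symbol starts with Hsp or Dnaj, or is Bag1 to Bag6, Cct2 to Cct8, Tcp1 or Hsf1. Hspa5, Hsp90b1, Dnajb9 and Dnajc3, which work in the endoplasmic reticulum, and Hspg2, a matrix proteoglycan, were left out. This gave 79 of the 19057 genes named on the array, measured by 150 of its 45281 probes. A probe was counted as detected when its signal passed a detection p of 0.05 on at least 2 of the 8 arrays, which held for 89 member probes and 62 member genes. The other 17 genes (Bag2, Dnajb14, Dnajb3, Dnajb7, Dnajb8, Dnajc14, Dnajc5b, Hspa12b, Hspa13, Hspa14, Hspa1a, Hspa1l, Hspa4l, Hspb11, Hspb3, Hspb7 and Hspb9) had no such probe and no level is given for them. Hsf1 and Hsp90ab1 were paired with no probe in the annotation used here and are not analysed here.

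The cells were E14, a mouse embryonic stem cell line from the inner cell mass, grown in 15% fetal bovine serum with 1500 U/ml leukaemia inhibitory factor (LIF), which keeps them undifferentiated. Every group received a hairpin RNA and 3 days of puromycin selection, so the control cells carry a hairpin and the drug as well. The control hairpin was directed at GFP (shGFP), and 3 different hairpins were directed at Dnmt3l (shDnmt3L1, shDnmt3L2 and shDnmt3L3), the catalytically inactive partner of the de novo DNA methyltransferases. Each group had 2 Illumina BeadChip arrays of total RNA, and the labels do not say that these came from separate cultures. The p-values therefore measure only the spread between arrays of the same group, pooled over all groups, which may be technical. The series title places the arrays in a study of Dnmt3L, DNA methylation and the germ cell fate of stem cells.

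Chaperones bind unfolded or partly folded proteins and keep them from clumping until they fold or are destroyed. HSP70 proteins do so in cycles of ATP hydrolysis that J proteins (the Dnaj genes) start and that BAG proteins and HSP110 end by exchanging the nucleotide. HSP90 takes over clients such as kinases and receptors, the ring-shaped CCT complex folds actin and tubulin, HSP60 with HSP10 folds proteins in mitochondria, and small heat shock proteins hold unfolding proteins without ATP. On heat or other protein damage the factor HSF1 binds heat shock elements, inverted repeats of the unit GAA, and raises many of these genes together. Undifferentiated stem cells are known for high levels of several chaperones.

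Promoter sequences are shown for 6 members on which the results below turn: Hspb8 and Bag3, which rose with every Dnmt3l hairpin, and Dnajb6, Hsph1, Hspd1 and Hspb1, for which shDnmt3L3 differed from the other hairpins. Each is the 150 bases before an annotated start, from RefSeq on the assembly GRCm38.p6, written 5′ to 3′ on the gene's strand. Dnajb6, Hsph1 and Hspd1 each have another annotated start. For them the start with the most matches in these bases was taken, and at a tie the lowest coordinate. The sequences were thus picked in part for their matches, and the window of the other Hspd1 start held none. Capitals mark the bases that matched a unit of GAANNTTC or TTCNNGAA, the heat shock element with 2 units, each of which is its own reverse complement.
Hspb8, chr5:116422865-116423014, minus strand: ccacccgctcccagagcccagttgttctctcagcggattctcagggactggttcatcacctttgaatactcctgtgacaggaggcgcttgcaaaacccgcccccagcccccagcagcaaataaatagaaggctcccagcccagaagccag
Bag3, chr7:128523433-128523582, plus strand: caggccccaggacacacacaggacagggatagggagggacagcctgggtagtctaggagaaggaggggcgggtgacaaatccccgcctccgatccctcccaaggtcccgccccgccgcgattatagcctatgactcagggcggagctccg
Dnajb6, chr5:29735748-29735897, plus strand: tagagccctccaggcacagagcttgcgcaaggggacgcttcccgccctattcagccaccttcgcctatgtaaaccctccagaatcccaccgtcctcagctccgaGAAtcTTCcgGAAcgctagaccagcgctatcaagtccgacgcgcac
Hsph1, chr5:149636316-149636465, minus strand: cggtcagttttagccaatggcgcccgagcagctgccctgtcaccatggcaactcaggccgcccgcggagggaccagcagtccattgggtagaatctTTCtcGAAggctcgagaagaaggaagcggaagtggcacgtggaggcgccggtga
Hspd1, chr1:55087933-55088082, minus strand: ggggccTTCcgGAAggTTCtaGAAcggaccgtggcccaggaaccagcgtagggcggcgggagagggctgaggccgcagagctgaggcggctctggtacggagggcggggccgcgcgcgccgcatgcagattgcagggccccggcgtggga
Hspb1, chr5:135887769-135887918, plus strand: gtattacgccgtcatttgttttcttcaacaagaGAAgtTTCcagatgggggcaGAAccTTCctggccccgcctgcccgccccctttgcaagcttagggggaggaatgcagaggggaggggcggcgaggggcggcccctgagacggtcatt

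Hspb8 and Bag3 had no match in these 150 bases, Hsph1 had 1 match, and Hspb1 had 2. Dnajb6 had 2 overlapping matches that form 1 element of 3 units (GAANNTTC continued by NNGAA), which begins 46 bases before the start. In Hspd1 there were 3 overlapping matches that form 2 overlapping elements of 3 units, the second kind being TTCNNGAA continued by NNTTC, the reverse complement of the former, and beginning 144 bases before the start. The same bases lie 89 bases before the start of Hspe1, which is transcribed away from Hspd1 on the other strand. Over the full windows, from 250 bases before to 50 after the start, 19 of 65 member genes with a RefSeq window held an element of 2 units on either strand (29.2%), against 4587 of 27025 genes (17.0%). Elements of 3 units, each of which contains elements of 2 units, were found in 4 member genes (6.15%: Dnajb6, Hsph1, Hspd1 and Hspe1) and in 179 of all genes (0.662%). For Hsph1 the element of 3 units begins 15 bases after the start, and for Hspb8 and Bag3 an element of 2 units begins 2 and 42 bases after it, outside the sequences printed. A match is a description of the letters and not evidence that a factor binds.

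Signal and detection were alike across arrays, with median signals of 96.1 to 104 and 40.0% to 42.5% of probes detected. Arrays of a group correlated at 0.995 to 0.996 over detected probes, and shGFP arrays with hairpin arrays at 0.97 to 0.982. Dnmt3l itself read 11.88 and 11.97 on the shGFP arrays, 10.51 and 10.45 under shDnmt3L1, 10.73 and 10.84 under shDnmt3L2, and 9.34 and 9.19 with shDnmt3L3, in normalized log2 intensity. That left 36.8%, 45.4% and 15.8% of the shGFP level, so shDnmt3L3 gave the lowest level and no groups overlapped. In the text below, levels are normalized log2 intensities, differences are log2 differences from shGFP with their standard error (SE) from limma, and a gene is called at a Benjamini-Hochberg adjusted p under 0.05 over all 20754 detected probes. A gene is described by its detected probe with the highest mean, and levels are not compared between genes.

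As a set, the chaperones held called genes in both directions, and their share of calls lay below or above that of all genes depending on the setting. For the mean of the 3 hairpins against shGFP, 10 of the 62 detected member genes were called higher and 16 lower (26 in all, 41.9%), where 49.8% of all 10930 detected genes were called, 26.1% higher and 23.7% lower. With shDnmt3L1, 9 member genes were higher and 16 lower (40.3% called), against 45.2% of all genes, 23.9% higher and 21.2% lower. With shDnmt3L2, 8 were higher and 11 lower (30.6%), against 36.1% of all genes, 19.3% higher and 16.8% lower. With shDnmt3L3, 11 were higher and 14 lower (40.3%), against 49.4% of all genes, 25.8% higher and 23.6% lower. Counted by probe, 37 of 89 member probes were called for the mean of the hairpins (41.6%, against 46.0% of all detected probes), 33 with shDnmt3L1 (37.1%, against 41.5%), 24 with shDnmt3L2 (27%, against 32.8%) and 32 with shDnmt3L3 (36%, against 45.5%). With shDnmt3L2, 12 of the 89 member probes were called higher (13.5%), against 16.7% of all probes. The higher ones were 12 of the 24 member calls, and this became 17 of 28 under median scaling and 13 of 38 without background correction. The order of the shares turned with the processing: for the mean of the hairpins, 52.8% of member probes against 48.4% of all probes were called without background correction, 51.7% against 48.8% with the larger offset of 50, and 52.8% against 49% with a trended and robust variance prior. Without background correction the member share was also the higher one with each hairpin, at 51.7% against 44.7%, 42.7% against 37.6% and 51.7% against 48.6%. No difference between the members and all genes is therefore claimed. The median difference of the member probes was -0.04 for the mean of the hairpins, -0.10 with shDnmt3L1, -0.04 with shDnmt3L2 and -0.05 with shDnmt3L3, while the median of all probes was -0.01 in each of the 4 comparisons. All comparisons share the shGFP arrays. When the hairpin group was treated as a random block, which allows for correlation between its arrays, 5 member probes and 3.31% of all probes were called. The member probes were both of Hspb8 and those of Bag3, Dnajb4 and Dnajc12. That fit still takes its degrees of freedom from all 8 arrays, so it is not a test at the level of the 3 hairpins.

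**Figure D1:**
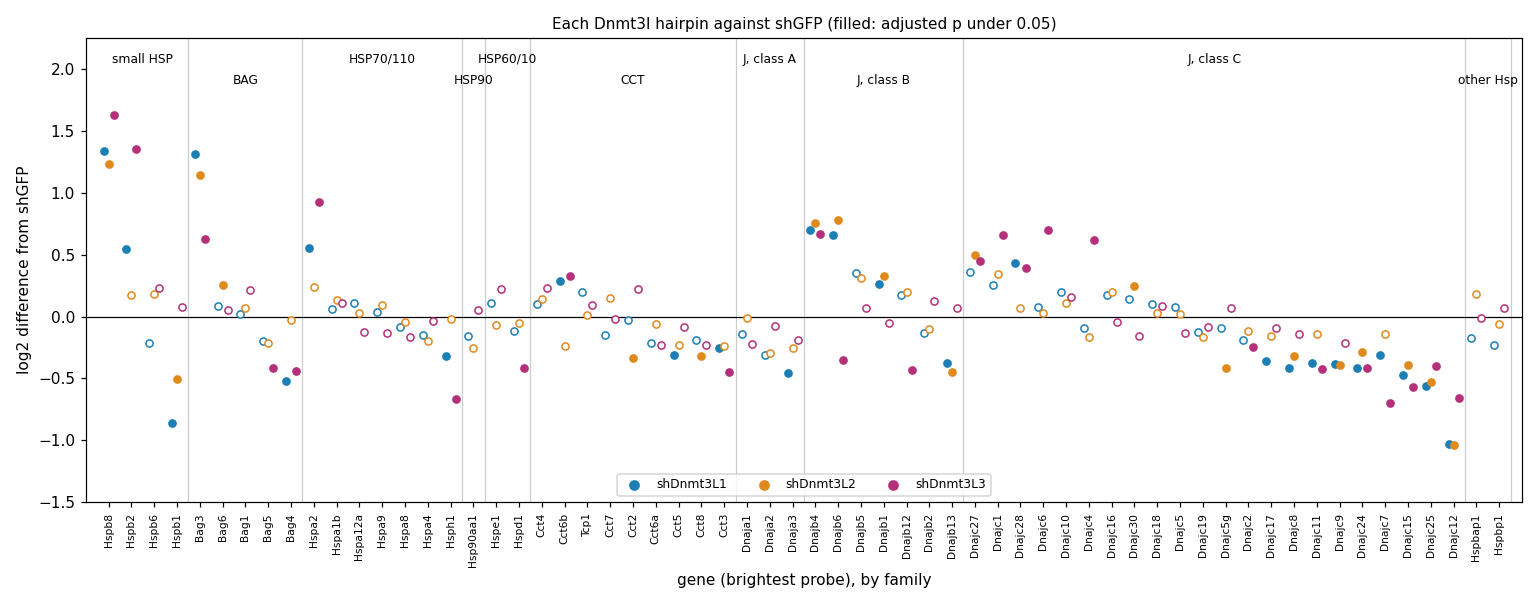
Log2 difference from shGFP (vertical axis) for the 62 detected chaperone genes (horizontal axis, grouped by family), with 1 point for each Dnmt3l hairpin, filled where limma's adjusted p was under 0.05. Points lie on both sides of 0 in most families, and Hspb8 (1.23 to 1.63), Bag3 (0.62 to 1.31) and Dnajb4 (0.67 to 0.76) lie above 0 with filled points for all 3 hairpins.

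The largest mean differences over the hairpins were rises of Hspb8 (1.40 ± 0.08) and Bag3 (1.03 ± 0.08). HSPB8 is a small heat shock protein that binds BAG3, a co-chaperone that bridges it to HSP70 and routes damaged proteins, among them stretched actin-binding proteins in muscle, to autophagy. Hspb8 read 8.61 and 8.64 on the shGFP arrays, 9.97 and 9.95 under shDnmt3L1, 9.98 and 9.73 under shDnmt3L2, and 10.29 and 10.22 with shDnmt3L3. All 6 hairpin arrays lay above both control arrays. The difference was 1.33 ± 0.10 with shDnmt3L1 (2.52-fold, adjusted p = 3.47e-05), 1.23 ± 0.10 with shDnmt3L2 (2.35-fold, adjusted p = 0.000118) and 1.63 ± 0.10 with shDnmt3L3 (3.1-fold, adjusted p = 8.07e-06). A separate Hspb8 probe gave 1.34, 1.23 and 1.61, all called. For the mean of the hairpins with the hairpin as a random block, the adjusted p of Hspb8 was 0.00593.

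Bag3 read 8.04 on both shGFP arrays, 9.38 and 9.33 under shDnmt3L1, 9.26 and 9.11 under shDnmt3L2, and 8.74 and 8.59 with shDnmt3L3. Here too the hairpin arrays all lay above the control, and the shDnmt3L3 arrays were the lowest of the 6. The differences were 1.31 ± 0.09 (2.49-fold), 1.14 ± 0.09 (2.21-fold) and 0.62 ± 0.09 (1.54-fold), with adjusted p = 2.91e-05, 0.00012 and 0.000705. Bag3 was lower with shDnmt3L3 than with shDnmt3L1 by a log2 difference of -0.69 (adjusted p = 0.000843) and than with shDnmt3L2 by -0.52 (adjusted p = 0.00275), and with the random block its adjusted p for the mean of the hairpins was 0.0377. The order of Bag3 over the hairpins was therefore not that of Hspb8, which was highest with shDnmt3L3.

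**Figure D2:**
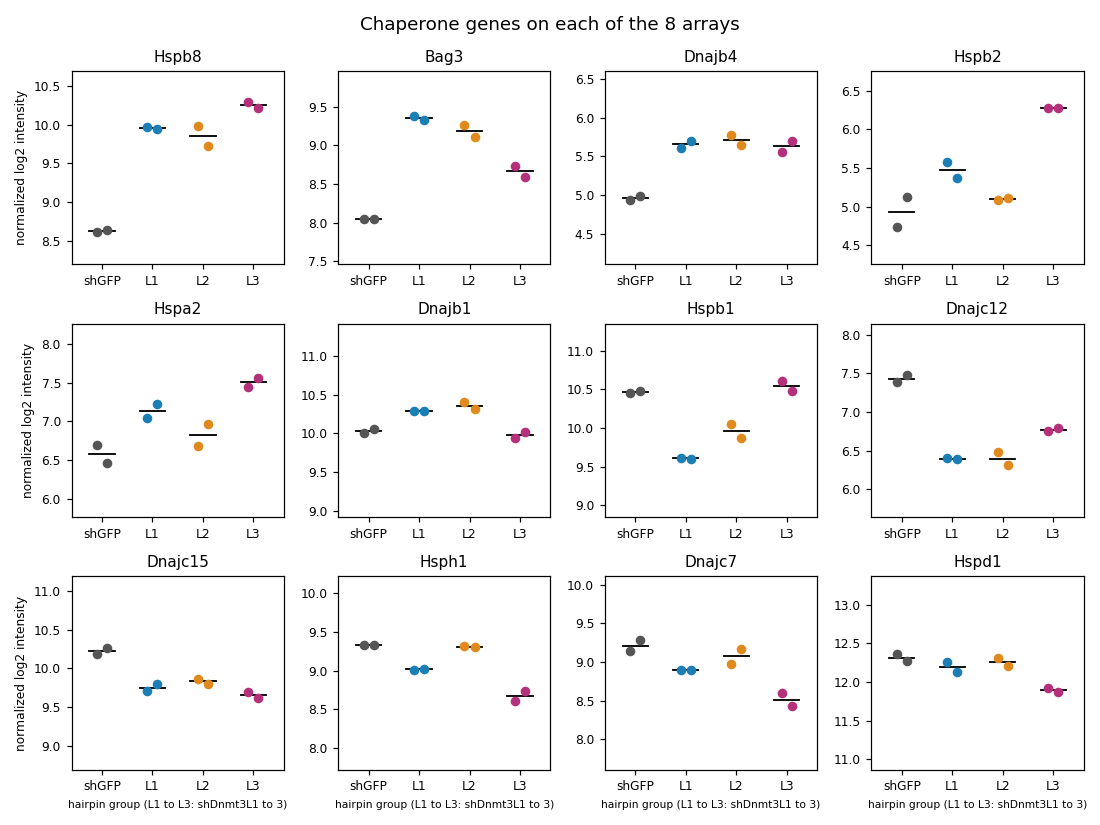
Normalized log2 intensity (vertical axis, the same span in every panel) of 12 chaperone genes by hairpin group (horizontal axis, L1 to L3 for shDnmt3L1 to shDnmt3L3). Each dot is an array and each line the mean of a group's 2 arrays. Hspb8, Bag3 and Dnajb4 lie above shGFP on all 6 hairpin arrays, Dnajc12 and Dnajc15 below it, and Hspb1, Hsph1 and Hspb2 differ by hairpin.

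Among the other small heat shock proteins, Hspb1 was called lower with shDnmt3L1 and shDnmt3L2, and Hspb2 was called higher with shDnmt3L1 and shDnmt3L3. HSPB1 (HSP27 in human) binds unfolding proteins and actin. Hspb1 read 10.45 and 10.48 in shGFP cells, 9.62 and 9.59 under shDnmt3L1, 10.05 and 9.87 under shDnmt3L2, and 10.60 and 10.48 with shDnmt3L3. The shDnmt3L1 and shDnmt3L2 arrays lay below the control, and the shDnmt3L3 arrays overlapped it. Hspb1 fell by 0.86 ± 0.09 with shDnmt3L1 (adjusted p = 0.000191) and by 0.50 ± 0.09 with shDnmt3L2 (adjusted p = 0.00397), while the difference with shDnmt3L3 was 0.08 ± 0.09 (adjusted p = 0.525). The hairpins differed from each other (F test, adjusted p = 0.000343), and Hspb1 was higher with shDnmt3L3 than with shDnmt3L1 by 0.94 and than with shDnmt3L2 by 0.58.

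Hspb2, which is known from muscle, was a dim probe, detected on 7 of 8 arrays. It read 4.73 and 5.12 in shGFP cells, 5.58 and 5.37 under shDnmt3L1, 5.09 and 5.12 under shDnmt3L2, and 6.28 and 6.27 with shDnmt3L3. The shDnmt3L3 arrays were the highest, those of shDnmt3L1 lay above the control by a smaller gap, and those of shDnmt3L2 lay within its range. Hspb2 rose by 1.35 ± 0.13 with shDnmt3L3 (2.55-fold, adjusted p = 7.31e-05) and by 0.55 ± 0.13 with shDnmt3L1 (adjusted p = 0.00957), and the value with shDnmt3L2 was 0.18 ± 0.13 (adjusted p = 0.334). The call with shDnmt3L1 was lost without shGFP replicate 1 (0.36, adjusted p = 0.0538) and without shDnmt3L1 replicate 1 (0.44, adjusted p = 0.0706). Because the gene is dim, its rise with shDnmt3L3 ran from 0.52 to 1.82 over the alternatives. In the RefSeq annotation Hspb2 lies within the span of Cryab, a related small heat shock protein of lens and muscle, on chromosome 9. Cryab, detected on 7 arrays, read 4.70 and 5.36 with shGFP and 6.06 and 5.91 with shDnmt3L3, a rise of 0.96 ± 0.24 (adjusted p = 0.0103), and its values of 0.39 with shDnmt3L1 and 0.24 with shDnmt3L2 were not called. Hspb6, named here after its values were seen because it is the remaining detected small heat shock protein, had differences of -0.22, 0.18 and 0.23 with the 3 hairpins in turn, none called.

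Other BAG genes gave smaller differences. Bag4, a BAG protein also known as a silencer of death receptors, fell by 0.52 ± 0.09 with shDnmt3L1 (adjusted p = 0.0017) and by 0.44 ± 0.09 with shDnmt3L3 (adjusted p = 0.00315), and its value with shDnmt3L2 was -0.03 ± 0.09 (adjusted p = 0.837). It read 8.91 and 9.04 in shGFP cells, 8.40 and 8.50 under shDnmt3L1, 8.96 and 8.94 under shDnmt3L2, and 8.50 and 8.56 with shDnmt3L3, so that the shDnmt3L2 arrays alone overlapped the control. Bag5 fell by 0.41 ± 0.10 with shDnmt3L3, a call lost without shGFP replicate 1 (-0.36, adjusted p = 0.0543) or shDnmt3L3 replicate 2 (-0.31, adjusted p = 0.0681). Bag6, which guards new membrane proteins in the cytosol, was called higher with shDnmt3L2 (0.25 ± 0.08, adjusted p = 0.0422), but no longer when any of the 8 arrays was left out (0.21 to 0.29, adjusted p up to 0.177). Bag1 had differences of 0.02, 0.07 and 0.22, none called.

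Some markers of other cells were also called. Of 10 fibroblast or feeder cell markers, 3 were detected, Acta2, Mmp2 and Thy1, and all 3 were called higher with each hairpin, with differences for the mean of the hairpins of 1.68, 1.45 and 0.97. Their mean level was 7.10 to 7.14 on shGFP arrays, 8.92 to 8.94 with shDnmt3L1, 8.18 to 8.32 with shDnmt3L2 and 8.26 to 8.30 with shDnmt3L3. The other defining markers, Col1a1, Col1a2, Col3a1, Postn, Lum, Dcn and Pdgfra, were not detected. For primitive endoderm, 4 of 9 markers were detected and Col4a1, Dab2 and Lama1 were called higher for the mean of the hairpins (1.25, 0.97 and 0.60). Col4a1 was called higher with each hairpin, but Lama1 had -0.13 with shDnmt3L1 and Dab2 0.07 with shDnmt3L3, neither called. The fourth, Sox7, had -0.22 for the mean, not called, and was called lower with shDnmt3L1 (-0.38, adjusted p = 0.0149). The 4 had mean levels of 5.9 to 6.0 with shGFP and 6.50 to 6.73 over the hairpin arrays, and Gata4, Gata6, Sox17, Foxa2 and Pdgfra were not detected. The 10 embryonic stem cell markers were all detected and none was called for the mean of the hairpins, but single hairpins gave calls in opposite directions. With shDnmt3L1, Esrrb (-0.28), Klf4 (-0.48) and Tfcp2l1 (-0.66) were lower, and with shDnmt3L2 Sox2 was lower (-0.32). With shDnmt3L3, Pou5f1 (-0.40) and Utf1 (-0.45) were lower while Esrrb (0.24) and Tfcp2l1 (0.35) were higher. The list had a mean level of 11.03 to 11.08 with shGFP and 10.89 to 11.17 over the hairpin arrays. Of 5 neural markers, 3 were detected and none was called for the mean of the hairpins. Nes was called higher with shDnmt3L2 (0.57, adjusted p = 0.0124) and Map2 with shDnmt3L3 (0.35, adjusted p = 0.0127), and Sox1 and Pax6 were not detected. Of 5 mesoderm markers only Eomes was detected, called higher with shDnmt3L1 (0.71) and shDnmt3L2 (0.35) and lower with shDnmt3L3 (-0.45). It was dim, detected on 1 shGFP array, on both arrays of shDnmt3L1 and of shDnmt3L2, and on none of shDnmt3L3. Its fall with shDnmt3L3 is therefore bounded only at 1.02-fold or more, by the bound described below for Hsf4. Eomes passed the detection filter through the shDnmt3L1 and shDnmt3L2 arrays, so its calls there are no separate support for a rise. The part of these cells or genes in the chaperone differences was not tested, and in total RNA a change in the number of cells of a type cannot be told apart from a change in RNA per cell.

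Among HSP70 and HSP110 genes, Hspa2 rose and Hsph1 fell, and Hspa4, Hspa8 and Hspa9 were not called. Hspa2, an HSP70 needed in spermatocytes of the mouse testis, read 6.69 and 6.47 in shGFP cells, 7.05 and 7.22 under shDnmt3L1, 6.68 and 6.96 under shDnmt3L2, and 7.45 and 7.56 with shDnmt3L3. Its shDnmt3L2 arrays overlapped the control and the others lay above it. It rose by 0.93 ± 0.12 with shDnmt3L3 (1.9-fold, adjusted p = 0.000423) and by 0.56 ± 0.12 with shDnmt3L1 (adjusted p = 0.0074), the latter call lost without shDnmt3L1 replicate 2 (0.47, adjusted p = 0.0553). The value with shDnmt3L2 was 0.24 ± 0.12 (adjusted p = 0.173), and another Hspa2 probe gave 0.24, 0.28 and 0.37, none called. The rise with shDnmt3L3 ran from 0.58 to 1.07 over the alternatives.

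Hsph1 encodes HSP110, a nucleotide exchange factor for HSP70 and a gene induced by HSF1. It read 9.33 and 9.34 in shGFP cells, 9.01 and 9.02 under shDnmt3L1, 9.32 and 9.31 under shDnmt3L2, and 8.60 and 8.74 with shDnmt3L3. All hairpin arrays lay below the control, but those of shDnmt3L2 by no more than 0.02 ± 0.08 on average. Hsph1 fell by 0.66 ± 0.08 with shDnmt3L3, to 0.632 of the control level (adjusted p = 0.000282), and by 0.32 ± 0.08 with shDnmt3L1 (adjusted p = 0.0143). The call with shDnmt3L1 was lost when either array of shGFP or of shDnmt3L1 was left out (-0.32, with adjusted p from 0.0529 to 0.0615).

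Hspa8, the constitutive HSP70 of the cytosol, had differences of -0.08, -0.04 and -0.16 (SE 0.09 each), none called. Of its 3 probes 1 was called higher with shDnmt3L1 (0.25) and shDnmt3L2 (0.32), and Hspa8 has near-identical copies in the genome, so its probes may not be specific. Hspa4, an HSP110 relative, had differences of -0.15, -0.20 and -0.03, and Hspa9, the mitochondrial HSP70, of 0.03, 0.09 and -0.13, none called. Hspa1b, the heat-inducible HSP70, was detected on 2 arrays, both with a hairpin, at 4.47 to 4.93 over all 8 arrays, with differences of 0.06 to 0.13 that were not called. Its sister gene Hspa1a is nearly identical, so that these 2 genes cannot be separated with confidence. Hsp90aa1, the inducible HSP90 of the cytosol, had differences of -0.15, -0.25 and 0.05, none called, while a dimmer probe was called lower with shDnmt3L1 (-0.54 ± 0.16, adjusted p = 0.0225).

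The mitochondrial chaperonin Hspd1 (HSP60) read 12.36 and 12.27 in shGFP cells, 12.26 and 12.13 under shDnmt3L1, 12.32 and 12.21 under shDnmt3L2, and 11.92 and 11.88 with shDnmt3L3. The shDnmt3L3 arrays lay below all others. Hspd1 fell by 0.42 ± 0.09 with shDnmt3L3 (adjusted p = 0.00458), and its other probe by 0.64 ± 0.09 (adjusted p = 0.000487), while neither probe was called with shDnmt3L1 or shDnmt3L2. Hspe1 (HSP10), the lid of the same chamber, whose promoter window shares the elements printed for Hspd1, had differences of 0.11, -0.07 and 0.22 (SE 0.13 each), none called.

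J proteins, the largest family with 32 detected genes, were called in both directions with each hairpin, with 4 higher and 11 lower under shDnmt3L1, 5 and 8 under shDnmt3L2, and 6 and 9 under shDnmt3L3. These calls took in 46.9%, 40.6% and 46.9% of the family, near the 45.2%, 36.1% and 49.4% of all detected genes. Dnajb4, a class B J protein of the cytosol, was dim and read 4.93 and 4.98 in shGFP cells, 5.61 and 5.70 under shDnmt3L1, 5.78 and 5.65 under shDnmt3L2, and 5.55 and 5.70 with shDnmt3L3. Every hairpin array lay above both control arrays, and the 3 hairpin groups overlapped each other. It rose by 0.70, 0.76 and 0.67 (SE 0.09 each), with adjusted p of 0.000525, 0.000606 and 0.000466, or 1.62-, 1.69- and 1.59-fold. Its values for the mean of the hairpins ran from 0.24 to 1.09 with the background setting, and with the random block its adjusted p was 0.0369. Another Dnajb4 probe was not detected with shGFP and not called. Dnajb1, the main HSP40 partner of HSP70 on heat shock, was called higher with shDnmt3L1 (0.26 ± 0.08, adjusted p = 0.0315) and shDnmt3L2 (0.33 ± 0.08, adjusted p = 0.0153), with a value of -0.05 ± 0.08 with shDnmt3L3. The call of Dnajb1 with shDnmt3L1 was lost when either array of shGFP or shDnmt3L1 was left out (0.24 to 0.28, adjusted p up to 0.12), and that with shDnmt3L2 without shGFP replicate 1 (0.31, adjusted p = 0.0721) or shDnmt3L2 replicate 1 (0.28, adjusted p = 0.0862). Dnaja1 was detected on 3 arrays, with differences of -0.14, -0.01 and -0.22, none called.

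Dnajb6 had the smallest adjusted p of the F test between hairpins among the member genes (7.86e-05). DNAJB6 is a J protein that keeps polyglutamine and other aggregation-prone proteins soluble, and its gene makes several transcripts. Its brightest probe read 9.63 and 9.74 with shGFP, 10.34 on both shDnmt3L1 arrays, 10.55 and 10.38 with shDnmt3L2, and 9.34 and 9.33 with shDnmt3L3. The shDnmt3L1 and shDnmt3L2 arrays lay above the control and the shDnmt3L3 arrays below it. Dnajb6 rose by 0.65 ± 0.09 (1.57-fold, adjusted p = 0.000634) and by 0.78 ± 0.09 (1.71-fold, adjusted p = 0.000472) with the former and fell by 0.35 ± 0.09 with the latter (adjusted p = 0.0118). The fall was not called without shGFP replicate 2 (-0.30, adjusted p = 0.0697) or shDnmt3L3 replicate 2 (-0.34, adjusted p = 0.0505). Between hairpins, shDnmt3L3 was lower than shDnmt3L1 by -1.0 (adjusted p = 0.000108) and lower than shDnmt3L2 by -1.12 (adjusted p = 5.64e-05).

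The 4 detected Dnajb6 probes did not move alike, and in the platform annotation they are assigned to different transcripts. The next brightest probe followed the brightest, with differences of 0.58, 0.61 and -0.52, all called. The third probe, at 9.40 on both shGFP arrays, had -0.01 with shDnmt3L1 and -0.23 with shDnmt3L2, neither called, and fell by 0.42 with shDnmt3L3. The dimmest probe was called lower with shDnmt3L1 (-0.35) and with shDnmt3L3 (-0.52), and had -0.11 with shDnmt3L2, not called. Thus all 4 probes were called lower with shDnmt3L3, while with shDnmt3L1 the pair of brighter probes was called higher and the dimmest lower.

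**Figure D3:**
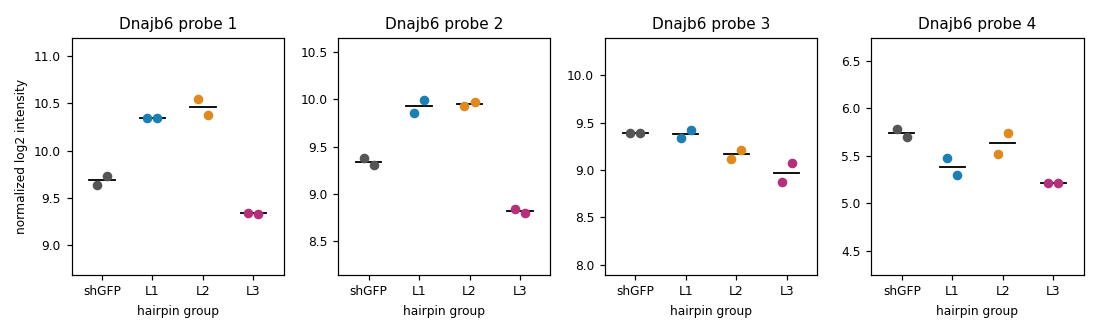
Normalized log2 intensity (vertical axis, the same span in each panel) of the 4 detected Dnajb6 probes, ordered by brightness, by hairpin group (L1 to L3 for shDnmt3L1 to shDnmt3L3). Dots are arrays and lines are group means. The shDnmt3L3 arrays lie below shGFP for every probe, and the shDnmt3L1 and shDnmt3L2 arrays all lie above it for probes 1 and 2.

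Class C J proteins, a mixed group that shares little beyond the J domain, held 9 of the 16 member genes called lower with shDnmt3L1, 7 of 11 with shDnmt3L2 and 7 of 14 with shDnmt3L3. With 22 of the 62 detected members, the class had 40.9%, 31.8% and 31.8% of its genes called lower, where 21.2%, 16.8% and 23.6% of all detected genes were, and this difference was not tested. Dnajc12, a J protein tied to the hydroxylases of aromatic amino acids, read 7.39 and 7.47 in shGFP cells, 6.41 and 6.39 under shDnmt3L1, 6.48 and 6.32 under shDnmt3L2, and 6.75 and 6.79 with shDnmt3L3. All hairpin arrays lay below the control. It fell by 1.03 ± 0.09 with shDnmt3L1 and with shDnmt3L2, to 0.489 of the control in both (adjusted p = 6.44e-05 and 0.000149), and by 0.66 ± 0.09 with shDnmt3L3 (adjusted p = 0.000409). A dimmer Dnajc12 probe was called lower with shDnmt3L1 (-0.60) and shDnmt3L2 (-0.71) but not with shDnmt3L3 (-0.28, adjusted p = 0.0851), and with the random block the adjusted p of the gene was 0.0244. Its mean difference ran from -1.06 to -0.55 over the alternatives.

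Dnajc15, a J protein of the mitochondrial inner membrane, read 10.18 and 10.26 in shGFP cells, 9.70 and 9.79 under shDnmt3L1, 9.86 and 9.80 under shDnmt3L2, and 9.69 and 9.62 with shDnmt3L3. It fell by 0.47, 0.39 and 0.57 (SE 0.08 each), with adjusted p of 0.0024, 0.00827 and 0.000726. The 3 hairpin groups were close together, with an F test among them at an adjusted p of 0.26. Dnajc25, a dim probe, fell by 0.56, 0.53 and 0.40 (SE 0.11 each). Its call with shDnmt3L3 was lost without shGFP replicate 1 (-0.30, adjusted p = 0.0988) or either array of shDnmt3L3 (-0.39 to -0.40, adjusted p up to 0.0638), and its mean difference ran from -0.77 to -0.17 with the background setting. Dnajc7, which carries both a J domain and repeats that bind HSP70 and HSP90, read 9.14 and 9.29 with shGFP, 8.90 on both shDnmt3L1 arrays, 8.98 and 9.17 with shDnmt3L2, and 8.60 and 8.43 with shDnmt3L3. It fell by 0.70 ± 0.10 with shDnmt3L3 (adjusted p = 0.00069) and by 0.31 ± 0.10 with shDnmt3L1 (adjusted p = 0.0373), a call lost without shGFP replicate 2 (-0.24, adjusted p = 0.177) or either shDnmt3L1 array (-0.31, adjusted p up to 0.12).

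A few class C genes rose with shDnmt3L3. Dnajc6 (auxilin), which strips clathrin from vesicles, read 8.67 and 8.59 in shGFP cells, 8.71 and 8.70 under shDnmt3L1, 8.69 and 8.62 under shDnmt3L2, and 9.23 and 9.44 with shDnmt3L3. The shDnmt3L3 arrays lay above all others and the other 3 groups were close together. Dnajc6 rose by 0.70 ± 0.09 with shDnmt3L3 (adjusted p = 0.000426), and its other probe by 0.43 ± 0.09. Dnajc4 rose by 0.62 ± 0.13 with shDnmt3L3 (adjusted p = 0.00372), from 6.66 and 6.36 with shGFP to 7.21 and 7.04, a value that ran from 0.36 to 0.77 over the alternatives, and its values with the other hairpins were -0.10 and -0.16, not called. Dnajc1, a J protein of the endoplasmic reticulum membrane that the naming rule takes in, rose by 0.66 ± 0.13 with shDnmt3L3 (adjusted p = 0.00371), a dim gene whose value ran from 0.22 to 0.88 over the alternatives, and it was not called with shDnmt3L1 (0.25) or shDnmt3L2 (0.34). Dnajc2, a J protein of the ribosome that acts on new chains, was called lower with shDnmt3L3 (-0.24 ± 0.08, adjusted p = 0.0361). That call was lost in 6 of the 8 fits that leave out an array (-0.28 to -0.20). Another Dnajc2 probe was not called with shDnmt3L3 (-0.20, adjusted p = 0.21) but was called lower with shDnmt3L1 (-0.38, adjusted p = 0.0304). The 24 remaining member genes, which the naming rule did not select, lay between -0.46 and 0.50 in the 3 comparisons. Of these, 1 was called higher and 7 lower under shDnmt3L1, 2 and 5 under shDnmt3L2, and 2 and 3 under shDnmt3L3. That is 33.3%, 29.2% and 20.8% of them, against 45.2%, 36.1% and 49.4% of all detected genes. The rule had taken out every member called with a difference of at least 0.5, which lowers these shares, so the gap is not a result.

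CCT subunits showed small differences, of which the fall of Cct3 with shDnmt3L3 was the call that held best. Each ring of the complex is built of different subunits, and the 9 genes counted here include Cct6a and its paralog Cct6b, which is known from testis. Cct3 fell by 0.45 ± 0.09 with shDnmt3L3 (adjusted p = 0.00308), from 12.51 and 12.60 with shGFP to 12.12 and 12.10, and its other probe fell by 0.52. The shDnmt3L3 arrays lay below both control arrays, and the call held under all 18 alternatives run for it (-0.57 to -0.40, adjusted p up to 0.0224). Cct3 was also called lower with shDnmt3L1 (-0.26, adjusted p = 0.0414), Cct5 with shDnmt3L1 (-0.31, adjusted p = 0.0454), Cct2 with shDnmt3L2 (-0.33, adjusted p = 0.026) and Cct8 with shDnmt3L2 (-0.32, adjusted p = 0.0355). Cct6b was called higher with shDnmt3L1 (0.29, adjusted p = 0.0491) and shDnmt3L3 (0.32, adjusted p = 0.0295). Each of these other 6 calls was lost in at least 3 of the 8 fits that leave out an array, with values of -0.30 to -0.22 for Cct3, -0.46 to -0.17 for Cct5, -0.40 to -0.26 for Cct2, -0.41 to -0.24 for Cct8, and 0.17 to 0.41 and 0.20 to 0.45 for Cct6b. Cct4, Cct6a, Cct7 and Tcp1, the remaining subunits, lay between -0.23 and 0.23 and were not called with any hairpin. A dimmer Tcp1 probe had -0.19 with shDnmt3L1 and -0.33 with shDnmt3L2, where the brightest had 0.20 and 0.01. It had 0.16 with shDnmt3L3, and none of its values was called.

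Cochaperones outside the set, taken from a list of 20 HSP90 and HSP70 partners that were all detected, had 0 called higher and 8 lower under shDnmt3L1, 3 and 4 under shDnmt3L2, and 1 and 7 under shDnmt3L3. Thus 0%, 15% and 5% were called higher, where 23.9%, 19.3% and 25.8% of all detected genes were, and 40%, 20% and 35% lower, where 21.2%, 16.8% and 23.6% were. With shDnmt3L2 both shares were near those of all genes, and no difference between the list and other genes was tested. The median of the list was -0.22, -0.07 and -0.16. Chordc1, an HSP90 partner induced by heat, read 10.49 and 10.41 in shGFP cells, 9.73 and 9.85 under shDnmt3L1, 10.07 and 10.11 under shDnmt3L2, and 9.46 and 9.52 with shDnmt3L3, and fell by 0.66, 0.36 and 0.96 (SE 0.09 each; adjusted p = 0.000492, 0.0128 and 4.73e-05). Ahsa1, which speeds the ATPase of HSP90, fell by 0.56, 0.49 and 0.74 (SE 0.11 each), and Sugt1, an HSP90 adaptor, by 0.54, 0.68 and 0.51 (SE 0.10 each), all called. Ahsa2 was called lower with shDnmt3L1 (-0.58) and shDnmt3L3 (-0.50), Sgta with shDnmt3L1 (-0.53), and Cdc37l1 with shDnmt3L3 (-0.90). The naming rule took the cochaperones called with a difference of at least 0.5, so these are the ones that moved most.

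**Figure D4:**
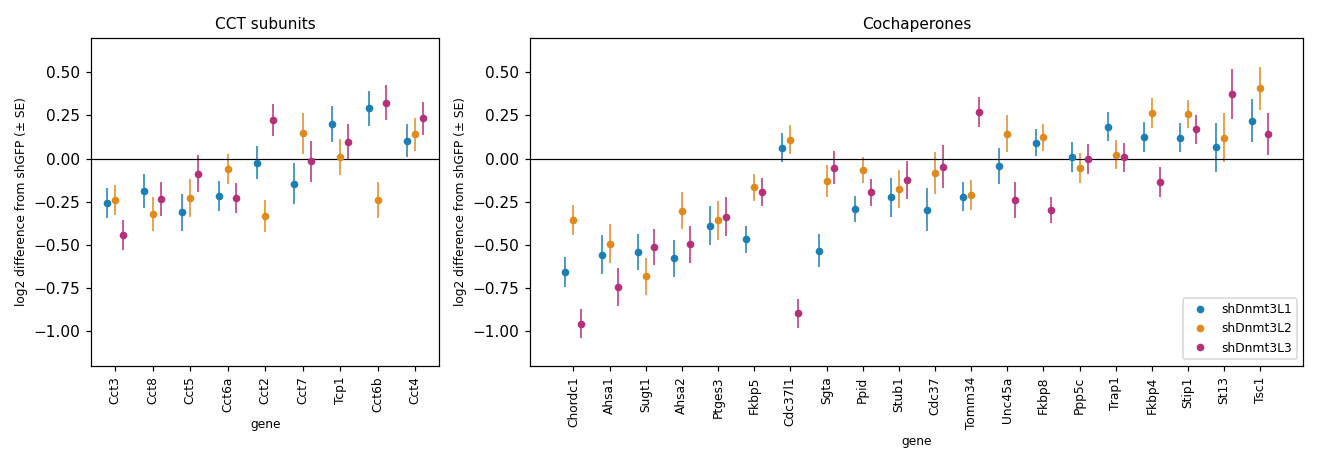
Log2 difference from shGFP with its standard error (vertical axis) for the 9 CCT subunits and 20 cochaperones (horizontal axis), with 1 point for each Dnmt3l hairpin. Chordc1, Ahsa1 and Sugt1 lie below 0 with every hairpin, and the CCT subunits lie between -0.45 and 0.32.

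Other genes of the pathway, counted with the cochaperones, came to 41 in the lists and 33 detected, of which 1 was called higher and 11 lower under shDnmt3L1, 4 and 7 under shDnmt3L2, and 5 and 10 under shDnmt3L3. In all 36.4%, 33.3% and 45.5% of them were called, against 45.2%, 36.1% and 49.4% of all detected genes. Serpinh1, the collagen chaperone HSP47 and a known heat shock gene, read 8.07 and 7.94 with shGFP and 9.30 to 9.73 over the hairpin arrays, and rose by 1.68, 1.37 and 1.72 (SE 0.09 each; adjusted p = 1.2e-05, 6.18e-05 and 4.99e-06). Hikeshi, which carries HSP70 into the nucleus, fell by 0.41, 0.43 and 0.58, all called. Hsf4, a heat shock factor of the lens, was detected on the shDnmt3L3 arrays only, at 5.37 and 5.39, at least 1.45-fold higher than with shGFP. That bound sets the mean of the bright group against the higher, on each array, of the lowest detected signal and the probe's own. Hsf4 passed the detection filter only through the shDnmt3L3 arrays, so its call, among the 5 higher there, is no separate support for a rise. Pdcl3, a partner of CCT, was not detected with shDnmt3L1 or shDnmt3L2 and was at least 1.4-fold and 1.37-fold lower there. With shDnmt3L3 it was detected on 1 array and called lower (-0.475, adjusted p = 0.00927). Pdcl3 passed the detection filter only with the help of the shGFP arrays, so its calls, among those lower with each hairpin, are no separate support for a fall. Of the 4 endoplasmic reticulum genes that the rule left out, Dnajb9 was called lower with shDnmt3L1 (-0.35) and shDnmt3L2 (-0.37), and Hspa5, Hsp90b1 and Dnajc3 were not called in any comparison.

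Differences between the Dnmt3l hairpins do not use the shGFP means, although the shGFP arrays enter the normalization, the detection filter and the shared variance. In the F test of equal means, 30 of 89 member probes were called (33.7%), against 37.4% of all detected probes, an order that turned without background correction (55.1% against 44.5%). Between shDnmt3L2 and shDnmt3L1, 4 member probes were called (4.49%), against 5.12% of all probes. Between shDnmt3L3 and shDnmt3L1 there were 25 (28.1%, against 29.0%), and between shDnmt3L3 and shDnmt3L2 there were 31 (34.8%, against 35.4%). Relative to both other hairpins, shDnmt3L3 had lower Dnajb6, Bag3, Hsph1 (-0.34 and -0.64), Hspd1 (-0.30 and -0.37), Dnajb1 (-0.31 and -0.38) and Dnajc7 (-0.39 and -0.56), and higher Hspb1, Hspb2 (0.80 and 1.17), Dnajc12 (0.37 in both), Dnajc4 (0.71 and 0.78) and Dnajc6 (0.62 and 0.68), the values being differences from shDnmt3L1 and from shDnmt3L2, all called. Dnmt3l was lowest with shDnmt3L3 too, but with 3 hairpins the level of Dnmt3l and other properties of a hairpin cannot be told apart.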

How the data were processed

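Total RNA of 8 arrays was analysed, 2 for each of the groups shGFP, shDnmt3L1, shDnmt3L2 and shDnmt3L3, assigned from the labels. Main values were the linear intensities that the authors deposited before normalization, read out with GenomeStudio 2011.1 according to the submitters' processing notes. Next to every intensity the authors deposited a p-value with no column name, taken as the detection p-value because of its place and because its steps match 936 negative controls. The authors' deposited processed intensities, made by steps not given in the sources used here, served as an alternative only. Their columns have a median of 6.23 to 6.24, are background-subtracted and linear, and were floored at 16 before log2.

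Intensities were corrected and quantile normalized with neqc (offset 16) in limma 3.58.1 (R 4.3.3), which draws the background from the detection p-values. Dim genes therefore depend on the background setting. The platform annotation pairs 34885 of 45281 probes with 1 gene, and symbols of 34807 were updated through the RefSeq table of GRCm38.p6. No member symbol changed. The 4 group means were fitted by lmFit and eBayes on all 8 arrays and 20754 detected probes, with 4 residual and 4.81 prior degrees of freedom, and all tests were two-sided with Benjamini-Hochberg adjustment over these probes. An exact permutation of 2 arrays against 2 cannot give a p below 0.333. Tests between pairs of hairpins were added after the data were seen. The fit was run on simulated data in which arrays were independent and drawn with its own variances. That checks the computation only and not the effect of correlation between arrays of a group. Precision is limited by the number of arrays.

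The members and lists were chosen with earlier results of these data known. Values are given for core genes of each family (Hspa1a, Hspa1b, Hspa2, Hspa4, Hspa8, Hspa9, Hspa14, Hsph1, Hsp90aa1, Hsp90ab1, Hspb1, Hspd1, Hspe1, Hsf1, Dnaja1, Dnajb1, Dnajb6, Dnajc2, Dnajc7, the BAG and CCT genes) and for every other member called against shGFP with an absolute log2 difference of at least 0.5. The alternatives changed the scaling, background, offset, detection filter, table, probes per gene, variance prior, arrays in the fit, and block, and left out each array.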

Additional observations from a re-analysis of the deposited data

Results flagged for a closer look

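For 16 named chaperone genes the 3 Dnmt3l hairpins, which address the same target, differed from each other in limma's F test of their means. The adjusted p was 7.86e-05 for Dnajb6, 0.000343 for Hspb1, 0.000612 for Hspb2, 0.00125 for Dnajc6, 0.00136 for Bag3, 0.00141 for Hsph1, 0.00254 for Dnajc4, 0.00442 for Cct6b, 0.00458 for Bag4, 0.00559 for Cct2, 0.00737 for Dnajc7, 0.0078 for Hspa2, 0.0136 for Dnajb1 and for Dnajc12, 0.0218 for Hspd1 and 0.0269 for Hspb8. Counted by gene, the same test called 23 of all 62 detected member genes (37.1%), against 40.9% of all detected genes. Counted by probe, it called 33.7% of the member probes, against 37.4% of all detected probes. Dnajb6 was called higher than shGFP with shDnmt3L1 and shDnmt3L2 and lower with shDnmt3L3. For Hspb8, Bag3 and Dnajc12 the direction against shGFP was the same with each hairpin and the sizes differed. Why the hairpins differ was not tested.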

How the results depend on the processing

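No result reversed its direction and call under any of the 21 alternatives. Of 152 named gene results, 68 were called, and 43 of these kept call and sign under every alternative other than the random block. The count for the mean of the hairpins fell from 37 to 5 with the hairpin group as a random block (consensus correlation 0.624). That fit sets the 3 hairpins against 1 control group and still counts every array in its degrees of freedom. Without background correction the count with shDnmt3L2 was 38 (42.7% of member probes, against 37.6% of all probes) and that of the F test 49 (55.1% against 44.5%), and with a trended and robust variance prior the F test called 46 (51.7% against 44.8%). In the main setting the member share lay below that of all probes in each of these, so the order of the shares depends on the setting. For the mean of the hairpins it also turned with the offset of 50, the authors' table (41.6% against 40.7%), no detection filter (24% against 20.3%) and the random block (5.62% against 3.31%). Leaving out each array in turn gave 23 to 36 calls for the mean of the hairpins (23 without shGFP replicate 2), 21 to 30 with shDnmt3L1 (21 without its replicate 1), 14 to 21 with shDnmt3L2 (15 without shGFP replicate 1 and 14 without either of its own arrays), 29 to 34 with shDnmt3L3 and 20 to 32 in the F test. Such fits have fewer arrays, and an arm of 1 array is assumed to vary like the others. The replicate numbers did not pair the arrays: deviations of same-numbered arrays correlated at -0.006 to 0.041, and with the replicate block 37, 32, 20, 31 and 29 probes were called for the mean, the hairpins in turn and the F test. Values of dim genes (Hspb2, Dnajb4, Dnajc1, Dnajc25) depend on the background setting. Cochaperones and cell markers were not recomputed under the alternatives.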
